A study of Mus musculus with 62 samples.

Results

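White adipose tissue taken 8 weeks after injection of melanoma cells that cause cachexia (CAC, 7 libraries) was compared with tissue of mock-injected mice of the same week (mock, 5 libraries). These 12 libraries are the CAC and mock groups of that week among 62 RNA sequencing libraries of the series, and the arm, week and replicate number were read from the sample descriptions. Another arm of 5 libraries at 8 weeks received melanoma cells without cachexia (NCAC) and was used only to set values beside the CAC group, and 5 CAC and 5 mock libraries at 6 weeks served for a test against the earlier week. All mice were female. The series record names NCI Ath/nude mice, injected when 2 months old, all samples carry the strain tag C57BL6/J, and all, mock included, carry a treatment tag that names cachectic melanoma cells. The labels call the replicates biological but do not tie libraries to single animals, so p-values measure the spread between these libraries. Which melanoma lines, injection site and fat depot were used is not given in the sources used here.

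Cachexia is a wasting of fat and muscle that accompanies cancer and other chronic disease. White fat cells store triglyceride in a droplet and release it as fatty acids by lipolysis, and they lie in a collagen scaffold made largely by fibroblasts and fat cell precursors. The acute phase response is a rise of plasma proteins during inflammation, mostly made in the liver under interleukin-6, interleukin-1 and glucocorticoids, and fat cells make some of the same proteins.

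Values are TPM, a transcript abundance that is corrected for gene length and has the same sum in every library. The number of reads behind a library is unknown. Genes reaching at least 1 TPM numbered 12498 to 14395 in the 12 libraries, and mitochondrially encoded genes took 20.1% to 41.8% of the TPM. Fat cell markers were abundant in every library: the 14 adipocyte markers summed to between 59862 and 107129 TPM in CAC libraries and between 40315 and 92201 TPM in mock tissue. Defining markers of melanocytes (Mlana, Tyr and Tyrp1) and of T cells (Cd3d, Cd3e, Cd4 and Cd8a) averaged under 0.5 TPM over the 62 libraries and were not tested. The other 3 of the 6 melanocyte markers (Pmel, Dct and Mitf) were tested. Their 3 changes in CAC against mock tissue were positive, with a median of 0.55 and 0 called.

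Libraries stood apart in 3 ways that touch the results. CAC replicate 3 had an acute phase sum of 2674 TPM, where the other CAC libraries had 9340 to 28031 TPM and mock libraries 1092 to 2372 TPM, and it had the highest sums of erythroid markers (19896 TPM) and skeletal muscle markers (1045 TPM). Mock replicate 2 had a collagen sum of 9994 TPM, where the other mock libraries had 1721 to 3331 TPM, together with the highest mural cell sum (14304 TPM) and a skeletal muscle sum of 1038 TPM. The 7 urothelial markers (bladder lining genes such as Upk1a, Upk2 and Upk3a) summed to over 10 TPM in CAC replicates 1, 4, 5, 6 and 7 (96.0 to 197 TPM) and in mock replicates 2 and 3 (61.7 and 119 TPM), and to at most 1.53 TPM in the other 5 libraries. Leaving out libraries over 100 TPM of these markers leaves 4 libraries in each group, among them mock replicate 2 and CAC libraries over 10 TPM.

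**Figure D1:**
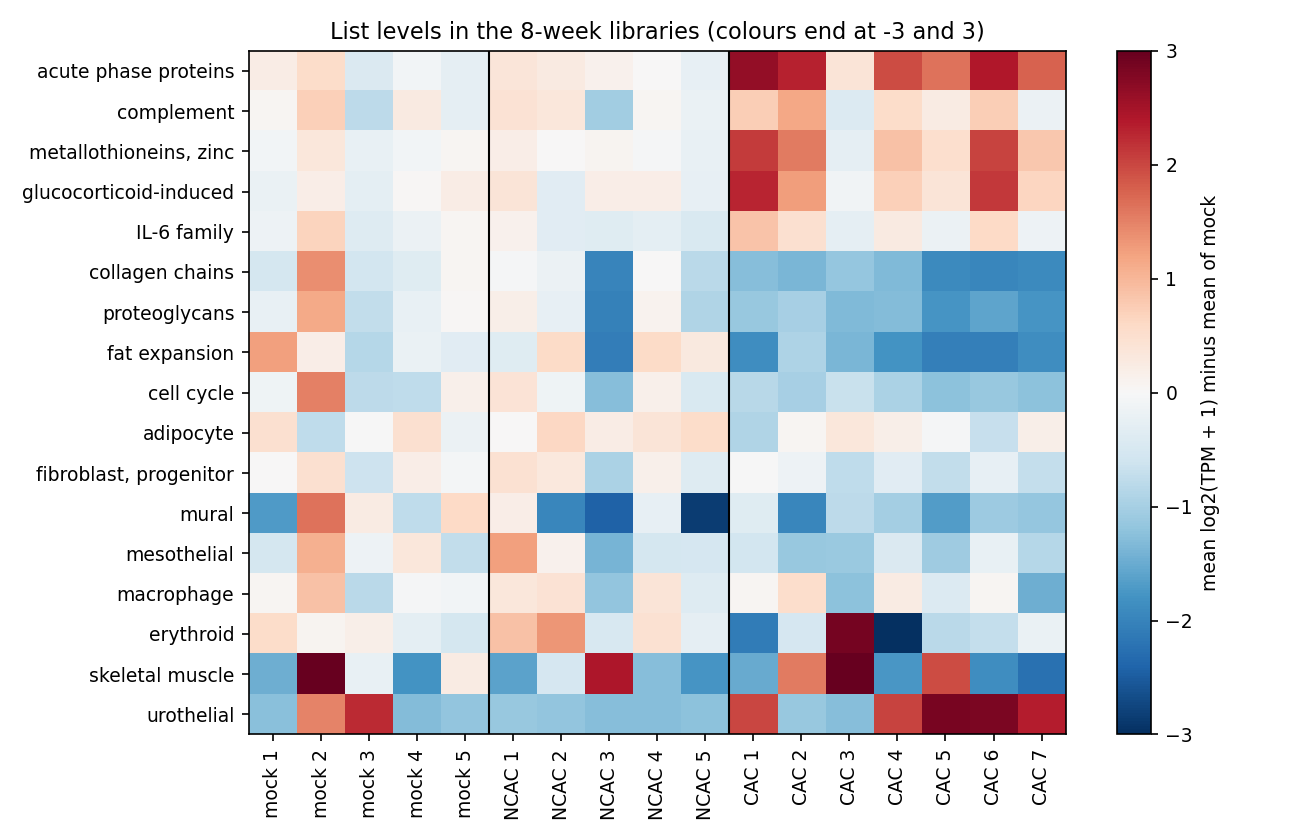
Mean log2(TPM + 1) of 17 gene lists (vertical axis) in the 17 libraries of 8 weeks (horizontal axis), with the mean of the mock libraries subtracted; red is higher, blue lower, and colours end at -3 and 3. CAC 3 lacks most of the red of the acute phase, metallothionein and glucocorticoid lists seen in the other 6 CAC libraries, NCAC 3 is blue for collagens like the CAC libraries, and urothelial markers are high in 5 CAC and 2 mock libraries.

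Of 14577 genes tested, 448 (3.07%) were called at a limma adjusted p under 0.05 between CAC and mock tissue. In CAC tissue 158 genes were higher (1.08%) and 290 were lower (1.99%), of which 125 and 202 by at least 2-fold. With mitochondrially encoded genes left out of the scaling the split was 248 higher and 1824 lower, and with all 62 libraries in 1 fit 536 higher and 450 lower. Changes are differences of mean log2(TPM + 1), which understate the change of low genes. The median change over all tested genes was -0.08, with 5670 positive and 8907 negative, and the groups did not overlap for 132 genes higher (0.906%) and 324 lower (2.22%). In bulk tissue fewer cells of a type and less RNA per cell cannot be told apart. The count of called genes ran from 131 without CAC replicate 7 to 647 without CAC replicate 3 when single libraries were left out. It was 2 without the libraries over 100 TPM of urothelial markers and 73 with the log sum of these markers as a covariate. In both settings all 448 genes kept their direction, and the median size of their changes was 1.26 and 1.25 against 1.32 with all 12 libraries, most of which these settings share.

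**Figure D2:**
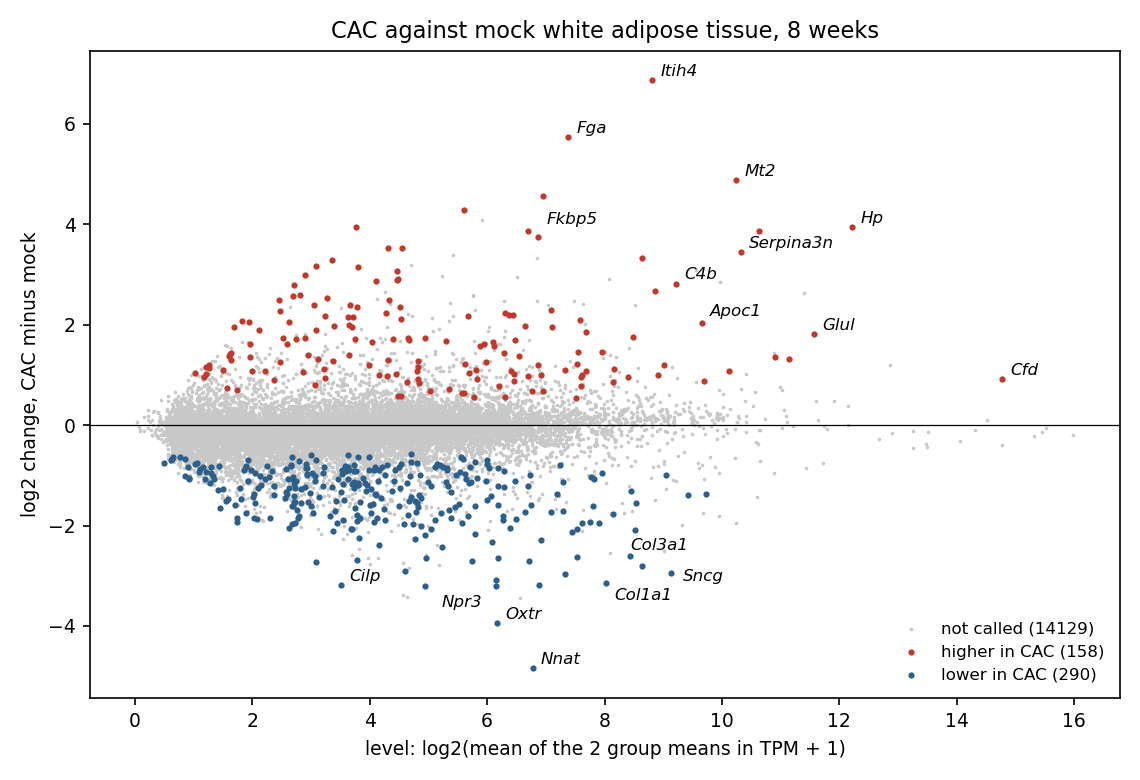
Change of each of 14577 genes (vertical axis, log2, CAC minus mock at 8 weeks) against its level (horizontal axis, log2 of the mean TPM of both groups plus 1), with 158 genes called higher in red, 290 called lower in blue and 14129 not called in grey. Itih4 has the largest rise at 6.87 and Nnat the largest fall at -4.85, and falls of matrix genes such as Col1a1 reach -3.15.

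Plasma protein genes of the acute phase were among the largest rises. Among the 23 listed acute phase genes, 20 were tested, 12 rose and 0 fell, against 1.08% of all genes called higher, and the median change was 2.25 against -0.08 over all genes. Of the 12, Saa1 and Saa2 are listed at 0 in every mock library and passed the level minimum only through other groups; with a mean of at least 5 TPM required the count was 10. Apcs, Crp and Saa4 were under the level minimum. Itih4, kept in a list of its own family, encodes an inter-alpha-trypsin inhibitor heavy chain, a plasma protein made mainly by the liver. For Itih4 (chromosome 14), mock libraries 1 to 5 held 3.13, 4.62, 5.84, 8.05 and 6.44 TPM, and CAC libraries ran from 151 over a median of 1133 to 1336 TPM. Every CAC library was above every mock library, and the lowest CAC library was CAC 3. The change was 6.87 (SE 0.46, limma adjusted p = 1.52e-05), and it passed in each of the 12 fits without 1 library, with a highest adjusted p of 1.97e-04. Of the other family members tested, Itih5, a member abundant in fat, fell by 1.5 on the log2 scale (limma adjusted p = 0.0241), a call lost in 3 of the 12 fits. The remaining member of the 3 tested had a positive change of 1.53 and was not called.

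The 250 bases before the RefSeq transcription starts of 5 of the rises are shown because they include the largest rise (Itih4), a plasma protein (Fga), an acute phase member (Serpina3n) and both metallothioneins that rose (GRCm38.p6, 5′ to 3′ on the gene's strand, which is the plus strand for all 5). Capitals mark matches to 4 motifs searched on both strands: a STAT site (TTCNNNGAA), a glucocorticoid response element (GNACA and TGTNC with any 3 bases between), a C/EBP site (TTNNGNAAT) and a metal response element (TGCACNC or TGCGCNC). The regions are chr14:30886226-30886475 for Itih4, chr3:83025903-83026152 for Fga, chr12:104406458-104406707 for Serpina3n, chr8:94178839-94179088 for Mt1 and chr8:94172368-94172617 for Mt2.
Itih4: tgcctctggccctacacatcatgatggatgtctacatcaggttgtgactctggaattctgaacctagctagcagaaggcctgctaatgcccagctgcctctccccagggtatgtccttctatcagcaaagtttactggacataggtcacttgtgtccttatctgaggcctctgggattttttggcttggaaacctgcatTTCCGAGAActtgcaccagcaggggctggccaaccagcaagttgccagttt
Fga: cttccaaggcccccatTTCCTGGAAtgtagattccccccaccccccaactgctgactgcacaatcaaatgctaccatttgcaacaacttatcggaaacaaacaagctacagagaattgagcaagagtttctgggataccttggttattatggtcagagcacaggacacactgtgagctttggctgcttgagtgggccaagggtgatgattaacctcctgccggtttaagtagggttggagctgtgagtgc
Serpina3n: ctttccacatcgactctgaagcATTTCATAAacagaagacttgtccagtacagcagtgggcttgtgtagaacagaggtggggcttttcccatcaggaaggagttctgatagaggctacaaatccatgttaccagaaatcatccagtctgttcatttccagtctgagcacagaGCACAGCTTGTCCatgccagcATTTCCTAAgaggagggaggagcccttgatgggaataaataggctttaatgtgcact
Mt1: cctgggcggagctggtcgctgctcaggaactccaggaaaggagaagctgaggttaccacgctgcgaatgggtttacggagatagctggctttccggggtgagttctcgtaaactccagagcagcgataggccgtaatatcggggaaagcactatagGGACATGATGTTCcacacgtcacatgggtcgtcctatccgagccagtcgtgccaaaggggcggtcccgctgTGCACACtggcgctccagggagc
Mt2: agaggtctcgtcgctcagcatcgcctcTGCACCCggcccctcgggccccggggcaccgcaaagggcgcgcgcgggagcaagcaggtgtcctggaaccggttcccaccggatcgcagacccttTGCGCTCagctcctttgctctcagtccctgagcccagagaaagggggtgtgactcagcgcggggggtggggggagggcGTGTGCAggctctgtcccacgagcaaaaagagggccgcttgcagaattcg
In these windows the STAT match of Itih4 begins 51 bases before the start and that of Fga 234 bases before it. Serpina3n has a glucocorticoid match at 78 bases and C/EBP matches at 228 and 57 bases, Mt1 a glucocorticoid match at 94 bases and a metal match at 23 bases, and Mt2 metal matches at 223, 128 and 50 bases. Of 32851 RefSeq windows of this length, 7.02% hold the STAT letters, 0.387% the glucocorticoid letters, 10.2% the C/EBP letters and 21.4% the metal letters. Among the 10754 tested genes with a window these shares were 7.34%, 0.325%, 8.07% and 33.4%. Windows were found for 17 of the 25 largest rises and 18 of the 25 largest falls. The STAT letters were in the windows of Chil6, Fga, Itih4 and Serpina3i among the rises and in none of the falls. The glucocorticoid letters were in 3 of the rises (Mt1, Scd3 and Serpina3n) and in none of the falls, and the C/EBP letters in 4 of the rises (Saa1, Saa2, Serpina3i and Serpina3n) and 2 of the falls (Col15a1 and Nnat). The metal letters were in 4 of the rises (Hpd, Mt1, Mt2 and Scd3) and 3 of the falls (C1qtnf3, Inhbb and Nnat). Among the rises, the windows of Apod, Fkbp5, Apoc4, Fetub, Tmem252 and Rdh1 held none of the 4 motifs, whereas all 5 windows shown hold a match. A match describes letters in a window and not a binding site.

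Haptoglobin, the plasma protein that binds free haemoglobin, was the most abundant of the called acute phase genes. For Hp, mock libraries 1 to 5 held 771, 482, 168, 543 and 356 TPM, and CAC libraries ran from 582 over a median of 7945 to 20472 TPM. The change was 3.94 (SE 0.71, limma adjusted p = 0.0160). The other 6 CAC libraries held at least 5077 TPM and lay above every mock library, and CAC 3 lay inside the mock range. For Serpina3n, a secreted serine protease inhibitor, mock libraries 1 to 5 held 375, 181, 112, 194 and 86.3 TPM, and CAC libraries ran from 295 over a median of 1939 to 3919 TPM; its change was 3.45 (SE 0.59, limma adjusted p = 0.0129), and CAC 3 was again the single CAC library inside the mock range. For Wfdc21, a small secreted protein of the whey acidic protein family, mock libraries 1 to 5 held 112, 59.9, 41.5, 145 and 29.5 TPM, and CAC libraries ran from 258 over a median of 671 to 1006 TPM. The groups did not overlap. Its change was 3.33 (SE 0.41, limma adjusted p = 0.00281).

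The other members that rose were the Serpina3 copies Serpina3k (4.56), Serpina3m (4.29) and Serpina3c (2.10), the serum amyloid genes Saa2 (3.18) and Saa1 (3.00), the orosomucoids Orm2 (1.70) and Orm3 (1.57), the lipid carrier Apod (3.86) and ceruloplasmin Cp (0.72), the copper-carrying ferroxidase. Reads of the near-identical Serpina3, Saa and Orm copies may be split between them. Without 1 library the calls of Saa1, Saa2 and Orm3 were each lost in 9 of the 12 fits, those of Serpina3c and Cp in 8 and that of Orm2 in 4. For Apod, mock libraries 1 to 5 held 4.93, 15.3, 5.68, 7.85 and 11.6 TPM, and CAC libraries ran from 11.8 over a median of 185 to 376 TPM, with CAC 3 the library inside the mock range. Lcn2, which encodes a siderophore-binding protein, had 70.8 ± 43.2 TPM (SD, n = 7) in CAC libraries and 83.5 ± 179.9 TPM (n = 5) in mock libraries. The mock SD exceeded the mock mean, and the CAC mean was the lower in TPM although the change of mean log2 values was positive. Lcn2 did not pass the test (change 2.46 (SE 1.21, limma adjusted p = 0.275)) and was called in 1 of the 12 fits without 1 library. Saa3, the serum amyloid gene of fat and macrophages, also did not pass (1.61 (SE 0.74, limma adjusted p = 0.243)). The number of acute phase genes that rose was 6 without CAC replicate 4, CAC replicate 7 or mock replicate 5, 7 without CAC replicate 6 or mock replicate 2, 4 with the urothelial covariate and 0 without the libraries over 100 TPM of urothelial markers. The list's median change was 1.88 and 1.96 in the latter settings, where Itih4 changed by 6.48 and 6.59. CAC replicates 2 and 3 had urothelial sums of at most 1.53 TPM. CAC replicate 2 held 648 TPM of Itih4, 20472 TPM of Hp and 3697 TPM of Serpina3n. CAC replicate 3 held 151 TPM of Itih4, 582 TPM of Hp and 295 TPM of Serpina3n, with Hp and Serpina3n inside the mock range. The cause of the difference between these libraries was not tested.

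**Figure D3:**
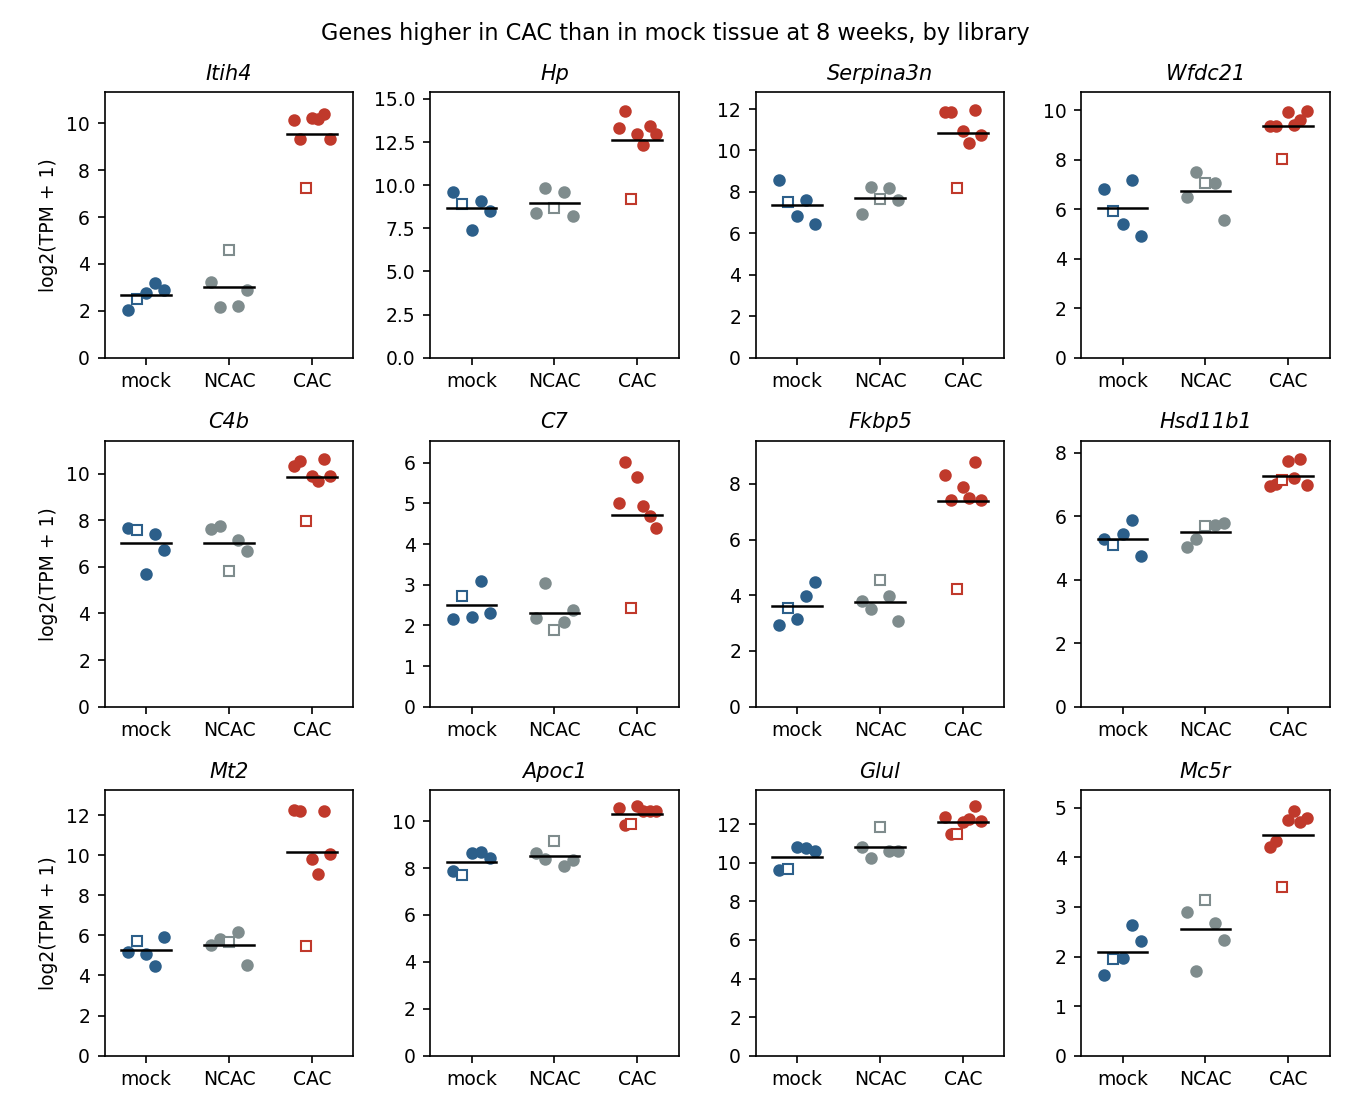
log2(TPM + 1) of 12 genes (1 panel each, vertical axis) in mock, NCAC and CAC libraries of 8 weeks; points are libraries, bars are group means, and open squares are mock 2, NCAC 3 and CAC 3. CAC 3 lies with the mock libraries for Hp, Serpina3n, C7, Fkbp5 and Mt2 and above them for Itih4, Wfdc21, C4b, Hsd11b1, Apoc1, Glul and Mc5r.

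Of 25 liver-type plasma protein genes, 17 were tested, 2 rose and 1 fell (median change 0.51), beside 1.08% of all genes higher and 1.99% lower. Fga encodes the fibrinogen alpha chain of clots, and its 7 CAC libraries held 1245, 1.77, 1.68, 168, 22.1, 825 and 47.0 TPM in replicate order, with mock libraries at 0, 0.0236, 0, 0.0190 and 0.0384 TPM. CAC replicates 1 and 6 were highest and replicates 2 and 3 lowest, although every CAC library was above every mock library. With mock libraries near 0, Fga passed the level minimum only through other groups. Its separation from mock tissue, and its place in the count of 2, are therefore not independent of that filter. The rise was 5.75 (SE 1.41, limma adjusted p = 0.0455) and was lost in 10 of the 12 fits without 1 library, with an adjusted p of up to 0.0923. The fibrinogen-like hepatokine gene Fgl1 rose by 3.94 (SE 0.74, limma adjusted p = 0.0183). For Alb, serum albumin, mock libraries 1 to 5 held 15.1, 5.25, 6.22, 17.2 and 3.87 TPM, and CAC libraries ran from 0.122 over a median of 1.80 to 4.04 TPM. The other 6 CAC libraries were below every mock library, and CAC 3 lay just above the lowest of them. Its change was -1.95 (SE 0.42, limma adjusted p = 0.0275), a call lost in 6 of the 12 fits without 1 library. The 9 neutrophil markers summed to 7.84 to 58.7 TPM in CAC libraries and 9.14 to 26.0 TPM in mock libraries, and their part in the result was not tested. Of 10 liver markers 5 were tested, and the fall of Alb was the single call. The other 4 changes were positive and reached 1.27, and the list's median was 0.11. The liver genes Cyp2c29, Cyp3a11, G6pc, Hnf4a and Tat were under the level minimum.

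Some complement genes rose. Of 19 tested complement genes 5 rose and 0 fell (1.08% of all genes were higher), and the median change was 0.13, with a range of -0.09 to 0.44 over the alternatives. For C4b, the fourth component, which the classical and lectin routes cleave, mock libraries 1 to 5 held 204, 189, 51.5, 172 and 106 TPM, and CAC libraries ran from 247 over a median of 960.2 to 1568 TPM. No CAC library reached down to the mock range, and the change was 2.82 (SE 0.45, limma adjusted p = 0.0111); reads of its close copy C4a may be counted with it. For C7, a part of the membrane attack complex, mock libraries 1 to 5 held 3.45, 5.64, 3.65, 7.46 and 3.94 TPM, and CAC libraries ran from 4.41 over a median of 29.4 to 63.8 TPM; CAC 3 alone lay inside the mock range. C7 had a change of 2.23 (SE 0.48, limma adjusted p = 0.0285). C6, another attack complex component, rose by 1.65 (SE 0.38, limma adjusted p = 0.0359) with no overlap, clusterin (Clu), a chaperone that inhibits the complex, by 1.37 (SE 0.34, limma adjusted p = 0.0447), and C3, on which all routes converge, by 1.32 (SE 0.27, limma adjusted p = 0.0242). Without 1 library the Clu call was lost in 11 of the 12 fits, the C6 call in 8, the C7 call in 7 and the C3 call in 4. The count of 5 was 1 without CAC replicate 4, 6 or 7 or mock replicate 5, 2 without CAC replicate 5 or mock replicate 2, and 3 without CAC replicate 1 or mock replicate 1 or 4. It was 1 with the urothelial covariate and 0 without the libraries over 100 TPM of urothelial markers, where C4b changed by 2.75 and 2.33.

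Few glucocorticoid-induced genes passed the test. Of 20 tested genes 3 rose and 0 fell, beside 1.08% of all genes higher, 17 changes were positive and the median change was 1.10. For Fkbp5, the FK506-binding co-chaperone that dampens the glucocorticoid receptor, mock libraries 1 to 5 held 6.64, 10.7, 7.82, 14.5 and 21.4 TPM, and CAC libraries ran from 17.9 over a median of 181 to 442 TPM. All CAC libraries but CAC 3 exceeded every mock library, and the change was 3.76 (SE 0.62, limma adjusted p = 0.0118). For Glul, glutamine synthetase, mock libraries 1 to 5 held 782, 809.7, 1829, 1722 and 1591 TPM, and CAC libraries ran from 2849 over a median of 4522 to 7917 TPM, without overlap. The change was 1.82 (SE 0.31, limma adjusted p = 0.0125). Tsc22d3, the leucine zipper gene called GILZ, rose by 1.65 (SE 0.34, limma adjusted p = 0.0242), a call lost in 4 of the 12 fits without 1 library. Per1 (1.32), Cebpd (1.66) and Ddit4 (2.39) had positive changes and limma adjusted p-values of 0.0851, 0.112 and 0.101. The count of 3 became 7 without CAC replicate 3, 2 at the lowest when another library was left out, and 0 without the libraries over 100 TPM of urothelial markers. In this last setting the list's median change was 0.89, with Fkbp5 at 3.23 and Glul at 1.70. Without the libraries over 10 TPM of these markers, which leaves 2 CAC and 3 mock libraries, the median was 0.54.

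Steroid and metal genes had isolated calls. Hsd11b1 encodes the enzyme that regenerates active glucocorticoid from its inactive form inside cells (chromosome 1, 193221634 to 193264075 on GRCm38). For it, mock libraries 1 to 5 held 38.4, 33.0, 42.9, 57.6 and 26.0 TPM, and CAC libraries ran from 124 over a median of 141 to 226 TPM. Every CAC library, CAC 3 included, lay above every mock library, and the change of 1.98 (SE 0.21, limma adjusted p = 0.00136) passed in each of the 12 fits without 1 library. Akr1c14, a hydroxysteroid dehydrogenase, fell by 3.08 on the log2 scale (limma adjusted p = 0.0304), a call lost in 5 of the 12 fits. The glucocorticoid receptor Nr3c1 changed by -0.51 (SE 0.19, limma adjusted p = 0.145). For Mt2, a zinc and copper binding metallothionein, mock libraries 1 to 5 held 35.5, 51.5, 32.4, 21.0 and 58.8 TPM, and CAC libraries ran from 42.8 over a median of 1073 to 4805 TPM; replicates 1, 2 and 6 were highest and CAC 3 lay at the mock level. Its change was 4.88 (SE 0.99, limma adjusted p = 0.0241), and that of the neighbouring near-identical copy Mt1 was 3.87 (SE 0.79, limma adjusted p = 0.0241). The Mt1 call was lost in 3 of the 12 fits without 1 library, and the Mt2 call was lost without CAC replicate 6 or 7 or mock replicate 4, with an adjusted p of up to 0.0535. Of the 7 tested metallothioneins and zinc transporters, 2 rose and 0 fell. Of 15 tested steroid enzymes and receptors 1 rose and 1 fell, beside 1.08% of all genes higher and 1.99% lower.

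The receptors and targets of interleukin-6 gave few calls. Of 17 tested genes 1 rose and 1 fell, beside 1.08% of all genes higher and 1.99% lower. The oncostatin M receptor gene Osmr rose by 1.30 (SE 0.33, limma adjusted p = 0.0489), with the call lost in all but 1 of the 12 fits without a library. Lif, a ligand of the family, fell by 1.84 on the log2 scale (limma adjusted p = 0.0241), a call lost in 4 of the 12 fits. Socs3, a feedback inhibitor, changed by 1.2 (SE 0.42, limma adjusted p = 0.126) and Stat3, the transcription factor of the pathway, by 0.98 (SE 0.33, limma adjusted p = 0.117). Il6 itself was under the level minimum. The 15 tested TNF and IL-1 genes and the 23 interferon-induced genes had no call, with medians of 0.04 and -0.15.

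Extracellular matrix genes fell in each of the matrix lists. Among 25 tested collagen chain genes 12 fell and 0 rose, 24 changes were negative and the median was -1.44, against 1.99% of all genes called lower. Type I collagen is the main fibre of connective tissue: for Col1a1, mock libraries 1 to 5 held 128, 1548, 166, 112 and 459 TPM, and CAC libraries ran from 10.5 over a median of 30.4 to 62 TPM. No CAC library reached the lowest mock library, and mock 2 was the highest of all 12; the change was -3.15 (SE 0.62, limma adjusted p = 0.0210). For Col6a3, the chain of the microfibrillar collagen around fat cells, mock libraries 1 to 5 held 57.1, 641, 127, 49.7 and 213 TPM, and CAC libraries ran from 4.55 over a median of 15.6 to 38.2 TPM, again without overlap, and the change was -3.18 (SE 0.60, limma adjusted p = 0.0183). For Col3a1, the fibrillar collagen of soft tissue, mock libraries 1 to 5 held 339.8, 1874, 309.6, 376 and 644 TPM, and CAC libraries ran from 35.5 over a median of 63.0 to 199.7 TPM, and the change was -2.81 (SE 0.49, limma adjusted p = 0.0143). Further falls were Col6a2 (-2.97), Col15a1 (-2.71), Col1a2 (-2.63), Col6a1 (-2.61) and Col5a1 (-2.33). The calls of Col1a2 and Col6a1 were each lost in 3 of the 12 fits without 1 library, and that of Col1a1 in 2. Without CAC replicate 7 the count was 7, with the urothelial covariate 3, and without the libraries over 100 TPM of those markers 0. The list's median change was -1.60 and -1.46 in the latter settings.

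Secreted matrix proteins also fell. Among 32 tested proteoglycans and matricellular proteins 15 fell, 0 rose and all 32 changes were negative, beside 1.99% of all genes called lower (median -1.38). For Cilp, cartilage intermediate layer protein, mock libraries 1 to 5 held 12.5, 49.6, 6.63, 8.35 and 22.3 TPM, and CAC libraries ran from 0.146 over a median of 0.593 to 2.21 TPM, without overlap. The change was -3.19 (SE 0.42, limma adjusted p = 0.00404). Spon2, a secreted protein that binds integrins, changed by -3.20 (SE 0.54, limma adjusted p = 0.0126). For fibronectin (Fn1), the glycoprotein that links cells to collagen, mock libraries 1 to 5 held 78.8, 475, 154, 126 and 187 TPM, and CAC libraries ran from 16.3 over a median of 35.6 to 50.6 TPM, without overlap. Its change was -2.28 (SE 0.38, limma adjusted p = 0.0126). Thbs1, Lum, Ogn, Dpt, Postn and Sparc fell by 2.65, 2.10, 2.07, 1.94, 1.81 and 1.38 on the log2 scale. Without 1 library the calls of Thbs1 and Sparc were each lost in 9 of the 12 fits, that of Lum in 8 and that of Ogn in 3. The count of 15 was 7 without CAC replicate 4 or 7 or mock replicate 5, 8 without CAC replicate 6, and 9 without CAC replicate 5 or mock replicate 2 or 4. It was 4 with the urothelial covariate and 0 without the libraries over 100 TPM of those markers, with a median change of -1.19 and -1.28.

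Among 35 processing and remodelling enzymes 6 fell and 0 rose, and among 16 elastic fibre genes 4 fell and 0 rose, beside 1.99% of all genes called lower. Loxl2, which crosslinks collagen and elastin, gave 26.1, 134, 29.9, 31.2 and 47.4 TPM in mock libraries 1 to 5 and 4.10 to 10.5 TPM over a median of 6.23 TPM in CAC libraries, with no overlap and a change of -2.64 (SE 0.37, limma adjusted p = 0.00604). The collagen prolyl and lysyl hydroxylases P4ha3 and Plod2 changed by -2.72 and -2.07, and the collagen chaperone Serpinh1 by -1.76. Without 1 library these calls were lost in 9, 7 and 5 of the 12 fits. For fibrillin-1 (Fbn1), the core of microfibrils, mock libraries 1 to 5 held 29.9, 104, 20.9, 32.3 and 37.7 TPM, and CAC libraries ran from 4.73 over a median of 7.93 to 10.6 TPM, without overlap. Its change was -2.28 (SE 0.33, limma adjusted p = 0.00623). Without CAC replicate 4, 6 or 7 or mock replicate 2, the enzyme count was 2, and without mock replicate 5 it was 3. The elastic fibre count was 2 without CAC replicate 4, 5, 6 or 7 or mock replicate 2, 4 or 5. With the urothelial covariate each count was 1 and without the libraries over 100 TPM of those markers 0. The median changes were then -0.69 and -0.66 for the enzymes, against -0.64 with all 12 libraries, and -1.09 and -1.03 for the elastic fibre genes, against -1.04. Nid1, which links laminin to collagen, fell by 1.13 on the log2 scale (limma adjusted p = 0.0241) as the single call among 16 basement membrane genes, lost in 4 of the 12 fits. The 8 tested mural cell markers had a median change of -1.62 with none called. Their sum ran from 523 to 2366 TPM in CAC libraries and from 809.6 to 14304 TPM in mock libraries. Against NCAC tissue their median change was 0.26, where that of the collagen chains was -0.77. The part of mural cells in the result was not tested. Among fibroblast and progenitor markers 2 of 15 fell, Anxa3 and Sema3c, with the calls lost in 1 and 5 of the 12 fits. Of the 15 changes 12 were negative and 3 positive. Their median was -0.64, and -0.36 against NCAC tissue. The part of fibroblasts in the result was not tested either.

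**Figure D4:**
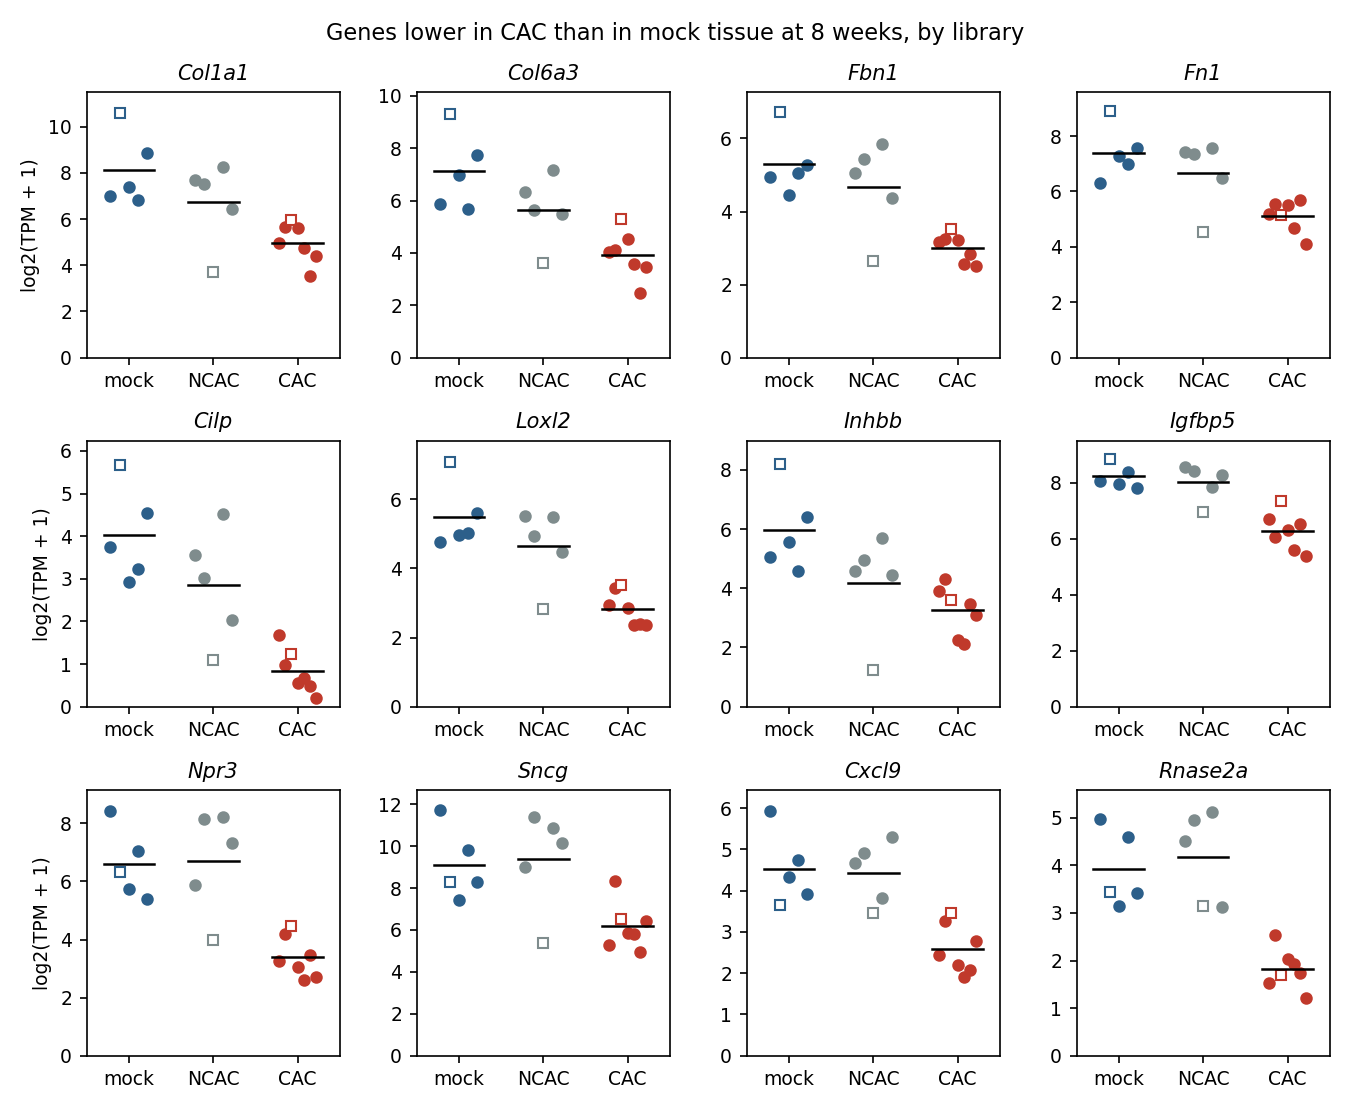
log2(TPM + 1) of 12 genes (1 panel each, vertical axis) in mock, NCAC and CAC libraries of 8 weeks; points are libraries, bars are group means, and open squares are mock 2, NCAC 3 and CAC 3. CAC libraries lie below every mock library for all of these genes except Sncg, and NCAC 3 lies among or under the CAC libraries for Col1a1, Col6a3, Fbn1, Fn1, Cilp, Loxl2, Inhbb, Npr3 and Sncg.

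Ligands and modulators of the TGF-beta family gave 6 falls and no rise among 31 tested genes, beside 1.99% of all genes called lower. For Inhbb, the beta B chain of activin B and inhibin B, mock libraries 1 to 5 held 32.2, 293, 46.3, 23.0 and 84.7 TPM, and CAC libraries ran from 3.38 over a median of 9.95 to 18.7 TPM. The groups did not overlap, mock 2 was highest, and the change was -2.71 (SE 0.57, limma adjusted p = 0.0256). Fstl1, a follistatin-like secreted protein, and Fstl3, which binds activin, fell by 1.88 and 1.28 on the log2 scale, and the ligands Bmp6 and Tgfb3 by 0.95 and 0.92. Without 1 library the Bmp6 call was lost in 9 of the 12 fits, those of Fstl3 and Tgfb3 in 7 and that of Inhbb in 5. The count was 1 without CAC replicate 4, 5 or 7, 2 without CAC replicate 6 or mock replicate 2 and 3 without mock replicate 1, 4 or 5. It was 0 both with the urothelial covariate and without the libraries over 100 TPM of those markers, with a median change of -0.45 in each against -0.31 with all 12 libraries. In the insulin and IGF list 3 of 21 tested genes fell and 0 rose, and the fall of Irs1 was lost in 4 of the 12 fits. The count was 1 with the urothelial covariate and 0 without the libraries over 100 TPM of those markers, where Igfbp5 changed by -1.83 and -1.68. For Igfbp5, a secreted IGF-binding protein, mock libraries 1 to 5 held 269, 464, 247, 336 and 224 TPM, and CAC libraries ran from 40.2 over a median of 78.0 to 163 TPM, without overlap. Its change was -1.95 (SE 0.31, limma adjusted p = 0.0110). Igfbp6 changed by -1.93 (SE 0.37, limma adjusted p = 0.0186) and the insulin receptor substrate Irs1 by -0.80 (SE 0.17, limma adjusted p = 0.0268); Igf1 (-0.87, limma adjusted p = 0.168) and the glucose transporter Slc2a4 (0.26, 0.711) did not pass.

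Genes known to rise as fat expands fell in part. Of 12 tested members 7 fell and 0 rose, beside 1.99% of all genes called lower (median -1.26). For Npr3, the natriuretic peptide clearance receptor, mock libraries 1 to 5 held 342, 80.2, 52.8, 132 and 40.8 TPM, and CAC libraries ran from 5.02 over a median of 8.58 to 21.1 TPM; no libraries overlapped and the change was -3.20 (SE 0.48, limma adjusted p = 0.00819). For Sncg, gamma-synuclein, mock libraries 1 to 5 held 3413, 312, 171, 899.5 and 314 TPM, and CAC libraries ran from 30.0 over a median of 56.6 to 326 TPM, and CAC 2 alone reached into the mock range (change -2.94 (SE 0.71, limma adjusted p = 0.0422)). For Nnat, neuronatin, mock libraries 1 to 5 held 787, 64.6, 16.5, 105 and 63.1 TPM and CAC libraries 0.779, 61.1, 2.31, 0.585, 0.738, 0.520 and 1.02 TPM; CAC 2 lay inside the mock range, the other 6 below it, and the change was -4.85 (SE 1.00, limma adjusted p = 0.0243). For Oxtr, the oxytocin receptor, mock libraries 1 to 5 held 95.4, 290.0, 112, 24.1 and 137 TPM, and CAC libraries ran from 1.37 over a median of 5.68 to 49.7 TPM, and CAC 3 was the library inside the mock range. Caveolin-1 (Cav1), cavin-1 (Ptrf) and the lipoprotein receptor Vldlr fell by 1.39, 0.99 and 1.22 on the log2 scale. The count of 7 was 2 without CAC replicate 6 or 7, 3 without CAC replicate 4 or 5 or mock replicate 2 or 4, and 4 without mock replicate 1 or 5. It was 1 with the urothelial covariate and 0 without the libraries over 100 TPM of those markers, with a median change of -1.09 and -1.21. Without 1 library the calls of Sncg and Ptrf were each lost in 9 of the 12 fits, that of Cav1 in 7, that of Vldlr in 6 and that of Nnat in 5. For leptin (Lep), the satiety hormone made by fat cells, mock libraries 1 to 5 held 459.7, 49.7, 69.2, 175 and 73.2 TPM, and CAC libraries ran from 0.0212 over a median of 17.5 to 50.4 TPM. CAC replicates 1 and 6 were lowest and CAC 3 overlapped the lowest mock library, and the change was -3.44 (SE 1.01, limma adjusted p = 0.0815). Adiponectin (Adipoq), the most abundant adipokine, had 3228 ± 453 TPM (SD, n = 7) in CAC libraries and 3613 ± 1848 TPM (n = 5) in mock libraries.

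Single genes of lipid handling rose. Apoc1, an apolipoprotein that inhibits lipoprotein lipase, and Apoc4 lie in the apolipoprotein cluster of chromosome 7. For Apoc1, mock libraries 1 to 5 held 233, 208, 404, 411 and 346 TPM, and CAC libraries ran from 906 over a median of 1369.8 to 1599.6 TPM, without overlap. The change was 2.04 (SE 0.22, limma adjusted p = 0.00136) and passed in each of the 12 fits without 1 library. For Apoc4, mock libraries 1 to 5 held 0.677, 0.528, 2.49, 1.38 and 0.537 TPM, and CAC libraries ran from 4.53 over a median of 15.5 to 111 TPM, without overlap, and the change was 3.53 (SE 0.63, limma adjusted p = 0.0160). The third member of the cluster, under the suffixed symbol Apoc2_1, changed by 3.08 (SE 0.40, limma adjusted p = 0.00404), and Apoe by 1.43 (SE 0.46, limma adjusted p = 0.102). Fetub, a liver-secreted fetuin, rose by 3.28 (SE 0.35, limma adjusted p = 0.00136). For Mc5r, a melanocortin receptor, mock libraries 1 to 5 held 2.09, 2.87, 2.93, 5.23 and 3.98 TPM, and CAC libraries ran from 9.52 over a median of 25.4 to 29.7 TPM. The groups did not overlap, and its change was 2.35 (SE 0.26, limma adjusted p = 0.00151). Azgp1, zinc-alpha2-glycoprotein, known as a lipid-mobilizing factor, rose by 2.17 (SE 0.53, limma adjusted p = 0.0447), a call lost in 9 of the 12 fits without a library.

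Of 13 tested triglyceride lipases and regulators 2 rose and 0 fell, beside 1.08% of all genes called higher and 1.99% lower. In this list 8 changes were negative and the median was -0.13. The rises were Azgp1, given above, and Abhd5, the activator of the main triglyceride lipase, by 1.00 (SE 0.21, limma adjusted p = 0.0266). Of 22 tested adrenergic, natriuretic and cyclic nucleotide genes 1 rose and 1 fell (Npr3), with 15 negative changes and a median of -0.26. The rise was that of Adora1, the antilipolytic adenosine receptor, by 0.93 (SE 0.19, limma adjusted p = 0.0241). The lipase Pnpla2 changed by 0.76 (SE 0.21, limma adjusted p = 0.0688) and hormone-sensitive lipase Lipe by 0.07 (SE 0.22, limma adjusted p = 0.913). In fatty acid uptake Slc27a1 rose by 1.07 (SE 0.27, limma adjusted p = 0.0466). The transcription factor gene Mlxipl (ChREBP) rose by 0.99 (SE 0.24, limma adjusted p = 0.0420), whereas Fasn, fatty acid synthase, and Scd1, the stearoyl desaturase, changed by 0.11 and -0.14 with limma adjusted p-values of 0.932 and 0.908. Scd3, a desaturase copy, rose by 3.53 (SE 0.81, limma adjusted p = 0.0361) and Cyp51, of cholesterol synthesis, by 2.18 (SE 0.43, limma adjusted p = 0.0227). Bscl2, the seipin gene of droplet formation, rose by 0.67 (SE 0.13, limma adjusted p = 0.0189) as the single call among 11 lipid droplet genes. Of 17 tested adipokine genes 1 rose and 1 fell, beside 1.08% of all genes called higher and 1.99% lower. Cfd, the serine protease adipsin, rose by 0.92 (SE 0.21, limma adjusted p = 0.0373), and Retnla, a resistin-like secreted protein, fell by 1.54 on the log2 scale (limma adjusted p = 0.0451). Without 1 library the Retnla call was lost in 10 of the 12 fits, those of Cfd and Slc27a1 in 9, those of Mlxipl and Scd3 in 8, that of Abhd5 in 5, that of Cyp51 in 2 and those of Adora1 and Bscl2 in 1.

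Immune cell genes had few calls. The chemokines Cxcl9 and Cxcl16 fell among 18 tested and 0 rose, beside 1.99% of all genes called lower. Of the 18 changes 13 were negative and 5 positive, with a median of -0.32. The largest positive change, 2.96, was not called. Against NCAC tissue 1 chemokine was called higher and 1 lower. For Cxcl9, a T cell attractant, mock libraries 1 to 5 held 59.9, 11.6, 19.0, 25.9 and 14.2 TPM, and CAC libraries ran from 2.74 over a median of 4.42 to 10 TPM and the change was -1.93 (SE 0.38, limma adjusted p = 0.0224); mock 1 was highest, and the groups did not overlap. Cxcl16, a membrane-bound chemokine, fell by 1.97 on the log2 scale (limma adjusted p = 0.0328), a call lost in 5 of the 12 fits without 1 library. Rnase2a, an eosinophil ribonuclease, fell by 2.10 on the log2 scale (mock libraries 1 to 5 held 30.3, 9.94, 7.81, 23.0 and 9.77 TPM, and CAC libraries ran from 1.32 over a median of 2.34 to 4.78 TPM), the single call among 8 mast cell and eosinophil markers. Macrophage markers had no call among 12, with a median of -0.39, and Adgre1 changed by -0.39 (SE 0.42, limma adjusted p = 0.682). The 4 tested neutrophil markers and the 4 tested T cell markers had no call, with medians of 0.93 and -0.63. Of 10 tested mesothelial markers 2 fell, beside the same 1.99% of all genes. Msln and Rspo1, mesothelial surface and signalling genes, fell by 1.96 and 1.15, and the Rspo1 call was lost in 3 of the 12 fits.

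**Figure D5:**
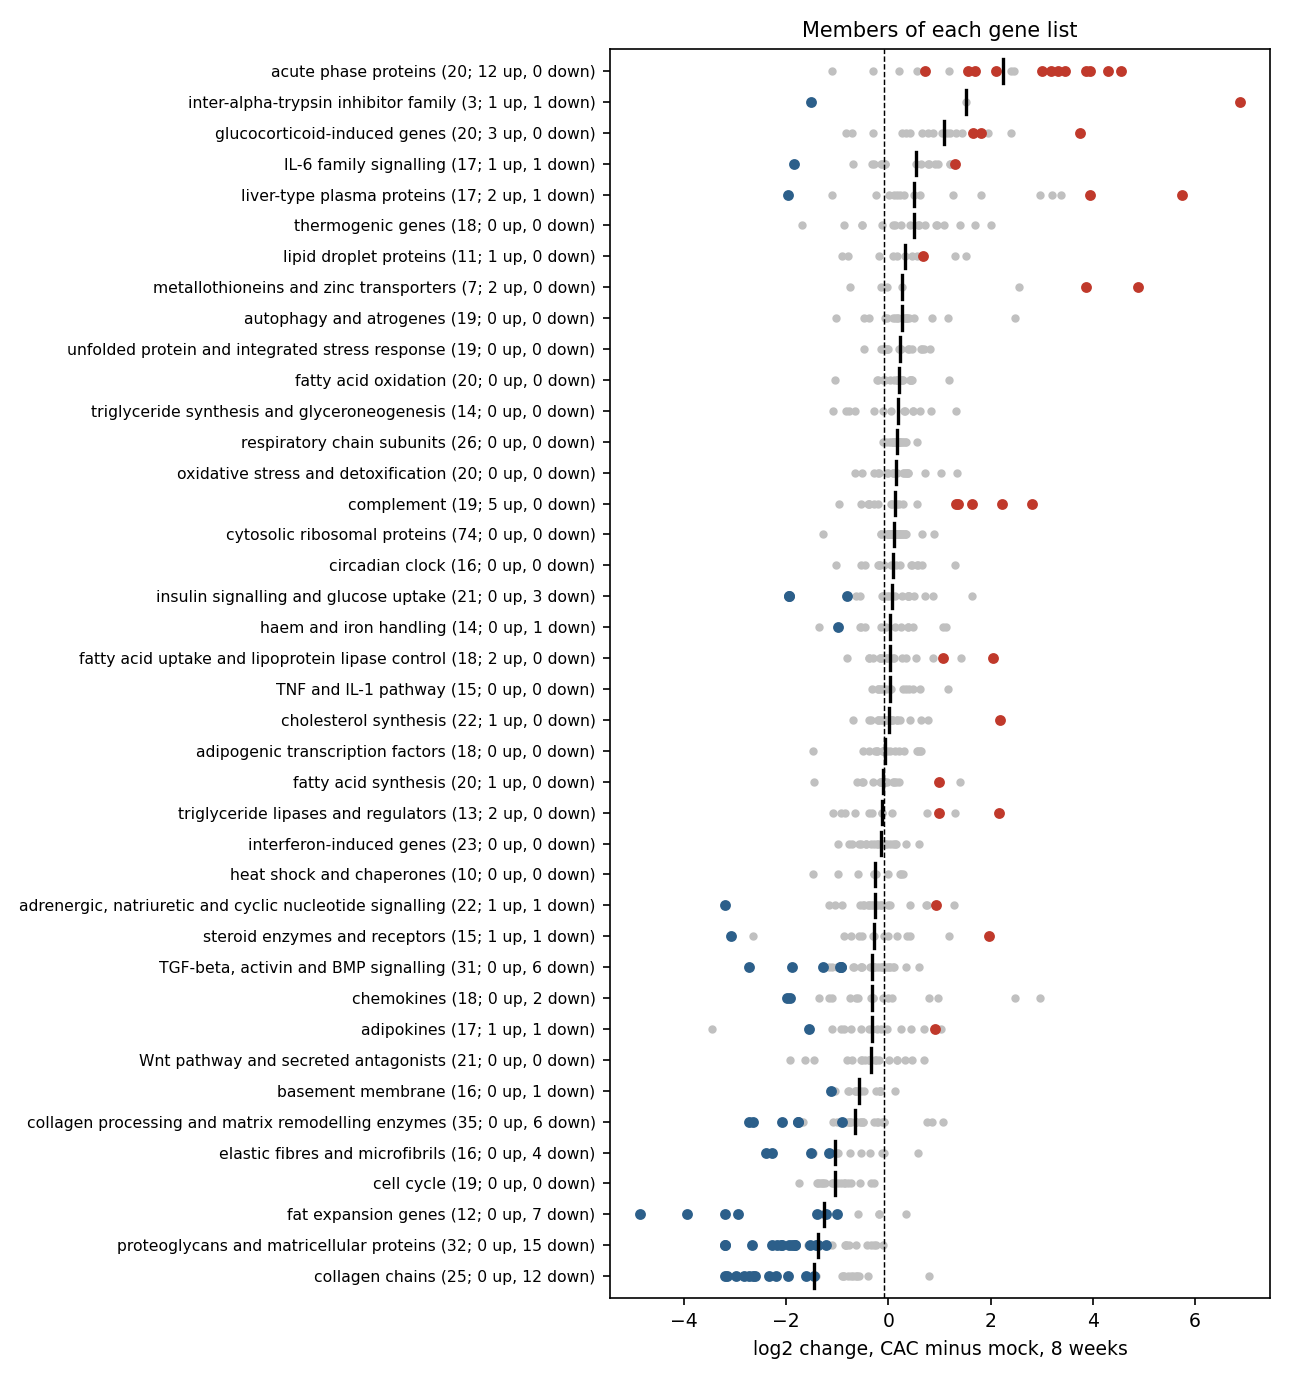
Change of the tested members (points, log2, CAC minus mock at 8 weeks, horizontal axis) of each pathway list (vertical axis, with the number tested and called), with called members in red or blue, the list median as a bar and the median of all genes as a dashed line at -0.08. The acute phase list lies furthest right at 2.25 and the collagen list furthest left at -1.44.

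Of 14 tested haem and iron genes 1 fell, beside 1.99% of all genes called lower. Heph, a copper-dependent ferroxidase, fell by 0.99 on the log2 scale (limma adjusted p = 0.0454), a call lost in 10 of the 12 fits without 1 library. Several lists had no call. The 26 respiratory chain genes had 24 positive changes and a median of 0.18. The 18 thermogenic genes had a median of 0.50, with Ucp1, the uncoupling protein of brown fat, at 0.93 (SE 1.26, limma adjusted p = 0.755). The 19 cell cycle genes had a median of -1.05 with 19 negative changes. Fatty acid oxidation, triglyceride synthesis, adipogenic transcription factors, the unfolded protein response and the ribosomal proteins gave none either, and Pparg, the fat cell master regulator, changed by 0.32 (SE 0.28, limma adjusted p = 0.588).

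Against NCAC tissue of the same week 77 of 14577 genes were called (0.528%), 50 higher (0.343%) and 27 lower (0.185%) in CAC. The comparison uses the same 7 CAC libraries as that with mock tissue, so the values are set side by side and are not independent. Itih4 changed by 6.54 (SE 0.55, limma adjusted p = 3.06e-04); the 5 NCAC libraries held 8.50, 3.47, 22.9, 3.62 and 6.32 TPM. Hp changed by 3.70 (SE 0.70, limma adjusted p = 0.0409), Serpina3n by 3.11 (SE 0.56, limma adjusted p = 0.0358), C4b by 2.83 (SE 0.45, limma adjusted p = 0.0205) and Fkbp5 by 3.60 (SE 0.61, limma adjusted p = 0.0266), with NCAC levels of Hp of 332, 906, 410.1, 792 and 291 TPM and of Fkbp5 of 12.8, 10.4, 22.2, 14.7 and 7.41 TPM. Acute phase genes rose in 7 of 20. Hsd11b1 changed by 1.77 (SE 0.19, limma adjusted p = 0.00202), Apoc1 by 1.78 (SE 0.21, limma adjusted p = 0.00263) and Mc5r by 1.90 (SE 0.29, limma adjusted p = 0.0205). Socs3, not called against mock tissue, rose by 2.05 (SE 0.37, limma adjusted p = 0.0374), and Npr3 fell by 3.32 on the log2 scale (limma adjusted p = 0.0454). No collagen chain was called, with a median of -0.77: the NCAC libraries held 208, 180.1, 12.2, 303 and 85.4 TPM of Col1a1, and NCAC 3 lay among the CAC libraries. The count was 1253 without NCAC replicate 3 and 7 without NCAC replicate 2, and it moved by over 1.5 times in 11 of the 12 fits without a library (all but CAC replicate 2). It was 1 without the libraries over 100 TPM of urothelial markers, of which NCAC has none.

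Tested against the CAC effect of 6 weeks, that of 8 weeks gave 0 calls of 14577 genes (0%), with 116 genes (0.796%) at an unadjusted p under 0.05. For Itih4, 6-week levels were 569.8 ± 215 TPM for CAC and 7.55 ± 2.35 TPM for mock libraries (SD, n = 5 in each), and the difference of the effects was 0.88 (SE 0.62, limma adjusted p = 1.000). For Fkbp5 these were 118 ± 70.2 TPM for CAC and 18.8 ± 7.4 TPM for mock libraries, with a difference of 1.23 (SE 0.80, limma adjusted p = 1.000). For Col1a1 they were 25.8 ± 9.55 TPM for CAC and 246 ± 392.4 TPM for mock libraries, with a difference of -1.13 (SE 1.07, limma adjusted p = 1.000). For Npr3 they were 21.1 ± 15.5 TPM for CAC and 138 ± 109.9 TPM for mock libraries, with a difference of -1.02 (SE 0.93, limma adjusted p = 1.000). A p that misses the threshold does not show that the effect was equal at both weeks.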

How the data were processed

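Trizol RNA went into stranded TruSeq mRNA libraries read on an Illumina NovaSeq, per the labels' protocols. The authors deposited 1 table of TPM with 47643 gene symbols in 62 libraries. The build was mm10, per the submitters' processing notes; neither the counting method nor the aligner is given in the sources used here, and each of the value columns was matched to a sample (0 unmatched). Depth is unknown, so no counting interval is given. Near-identical genes may share reads.

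Values were transformed to log2(TPM + 1), and genes averaging 0.5 TPM or more over all libraries were tested with limma 3.58.1 in R 4.3.3 (mean-variance trend, robust prior) on the 2 groups compared, or on 4 groups for the difference between weeks. This minimum lets genes in that are high in 1 group alone, such as Saa1, Saa2 and Fga. Two-sided p-values were adjusted over all genes (Benjamini-Hochberg), and calls were made under 0.05. Fits were tested on simulated data. Coordinates came from GENCODE M21 and promoter windows from RefSeq (GRCm38.p6).

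The comparison, the lists, the motifs and the tests were chosen with earlier results of these data known. Named were the 25 largest called rises and falls with at least 10 TPM in the higher group, the 10 smallest p-values, up to 4 called members in each direction of each list, and always Adgre1, Adipoq, Azgp1, Cebpb, Cebpd, Cfd, Col1a1, Fasn, Fkbp5, Hsd11b1, Igf1, Il6ra, Irs1, Irs2, Lcn2, Lep, Lipe, Nr3c1, Osmr, Pck1, Pdk4, Pnpla2, Pparg, Saa3, Scd1, Slc2a4, Socs3, Stat3, Ucp1 and Zbtb16. Further list members (Apoe, C3, Cav1, Cp, Ddit4, Dpt, Lum, Ogn, Orm2, Orm3, Per1, Postn, Ptrf, Serpina3c, Sparc, Tgfb3 and Vldlr) were named after their values were seen. Alternatives covered the pseudocount, filters, scaling, library weights, a pooled fit, the replicate block, urothelial markers and leaving out each library. Itih6 and Ltbp4 were listed and not analysed here.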

Additional observations from a re-analysis of the deposited data

Results flagged for a closer look

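A library was marked where its gap to the nearest other library of its group was large against the group's range. The rule was applied to 128 groups of values, and chance marks about 1 in 20 groups, so several of these marks may be chance. Mock replicate 2 had 14395 genes at 1 TPM or more, and the other mock libraries had 12806 to 13126. The remaining values are mean log2(TPM + 1) of a list. CAC replicate 1 was high for Wnt genes (4.07, others 2.64 to 3.15), kidney and adrenal markers (0.870, others 0.295 to 0.530) and ovary and uterus markers (1.48, others 0.830 to 1.01). CAC replicate 7 was low for neutrophil markers (0.742, others 1.55 to 2.00), and CAC replicate 6 was low for pancreas markers (0.226, others 0.572 to 0.748). Mock replicate 5 was high for pancreas markers (1.95, others 0.559 to 0.750), mock replicate 2 was high for mammary markers (0.845, others 0.0409 to 0.267), and mock replicate 3 was low for the unfolded protein response (5.47, others 5.76 to 5.83).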

How the results depend on the processing

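Counts of called genes moved with the processing. For CAC against mock tissue the count of 448 became 223 with no filter on low values, 2072 with mitochondrially encoded genes left out, 1451 with median-ratio rescaling, 986 with all 62 libraries in 1 fit and 1462 with library weights. It was 73 with the urothelial covariate, 2 without the libraries over 100 TPM of those markers, 0 without those over 10 TPM (2 CAC against 3 mock libraries, 892 genes at an unadjusted p under 0.05) and 74 among those over 10 TPM alone (5 against 2). The alternatives at 10 TPM were chosen after seeing the data. Without libraries over 10 TPM the median change was 0.54 for glucocorticoid-induced genes (1.10 with all 12 libraries) and 1.58 for acute phase genes (2.25). It was -1.16 for collagen chains (-1.44), -0.88 for proteoglycans (-1.38) and -0.87 for fat expansion genes (-1.26). Medians further from 0 were those of complement at 0.18 (0.13) and TGF-beta genes at -0.47 (-0.31). For CAC against NCAC tissue the count of 77 became 34, 206, 222, 611 and 3061 in the first 5 of these settings, 1 with the covariate, 1 without libraries over 100 TPM and 0 without those over 10 TPM (418 at an unadjusted p under 0.05). Leaving out 1 library gave 131 to 647 against mock tissue and 7 to 1253 against NCAC tissue. The first moved by over 1.5 times without CAC replicates 4 (172), 5 (236), 6 (169) and 7 (131) and mock replicates 2 (209), 4 (238) and 5 (220). The difference between weeks gave 0 calls in every setting run. The causes of these moves were not tested.

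Same-numbered replicates did not deviate together (correlations of -0.24, -0.11, 0.13, 0.07 and -0.03 for numbers 1 to 5), so the numbers give no pairing; with the replicate block over replicates 1 to 5 the counts were 30 against mock and 2 against NCAC tissue. Only replicate 3 correlated best with its own number.

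Of 91 named called genes, 40 stayed called in all 12 fits without 1 library, 29 with the urothelial covariate, and 0 reversed in any of the 26 settings. These genes were picked for their calls in libraries that the settings largely share, so their kept directions are not independent support. Reversals were of uncalled genes. With the covariate they were Adipoq (0.201), Scd1 (0.0387) and Pdk4 (-0.0861), and with library weights Pdk4 (-0.0939) and Ucp1 (-0.267). Rescaling by median ratio turned Adipoq (0.0757), and leaving out mitochondrially encoded genes turned Lipe (-0.0359). Among libraries over 10 TPM of urothelial markers Adipoq (0.563), Fasn (-0.292), Pdk4 (-0.261) and Ucp1 (-0.808) turned, and without them Il6ra (-0.0390), Pparg (-0.167), Scd1 (0.0637) and Zbtb16 (-0.205). Leaving out 1 library moved Adipoq from -0.236 to 0.194, Fasn from -0.0834 to 0.348, Lipe from -0.0960 to 0.174, Pdk4 from -0.00565 to 0.700, Pparg from -0.00231 to 0.523, Scd1 from -0.339 to 0.111 and Ucp1 from -0.409 to 1.82. The effect of read depth could not be tested, since it is unknown.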

Other observations

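Genes outside the lists also differed. For Chil6, a chitinase-like secreted protein, mock libraries 1 to 5 held 0.291, 1.75, 2.04, 1.55 and 2.42 TPM, and CAC libraries ran from 5.64 over a median of 23.3 to 47.2 TPM, without overlap, and the change was 3.15 (SE 0.40, limma adjusted p = 0.00396). For Tmem252, a transmembrane protein gene, mock libraries 1 to 5 held 4.61, 4.24, 1.63, 3.14 and 3.50 TPM, and CAC libraries ran from 7.18 over a median of 34.2 to 67.7 TPM, and the change was 2.89 (SE 0.48, limma adjusted p = 0.0118). For Hpd, an enzyme of tyrosine breakdown, mock libraries 1 to 5 held 1.2, 1.07, 3.23, 3.34 and 1.28 TPM, and CAC libraries ran from 6.44 over a median of 16.3 to 90.9 TPM, without overlap, with a change of 2.87 (SE 0.58, limma adjusted p = 0.0241), a call lost in 3 of the 12 fits. Eif4ebp3, a translation inhibitor of the 4E-binding family, rose by 2.91 (SE 0.65, limma adjusted p = 0.0335), and Rdh1, a retinol dehydrogenase, by 2.80 (SE 0.64, limma adjusted p = 0.0359), the calls lost in 9 and 10 of the 12 fits without a library.

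Among genes that fell, Serpinb6b, an intracellular serine protease inhibitor, held 19.0, 36.0, 11.2, 21.7 and 12.9 TPM in mock libraries 1 to 5 and 1.95 to 5.58 TPM in CAC libraries, without overlap, and its change of -2.07 (SE 0.27, limma adjusted p = 0.00404) passed in each of the 12 fits without 1 library. C1qtnf3, a secreted adiponectin paralog, changed by -2.90 (SE 0.70, limma adjusted p = 0.0436), with mock libraries at 3.04, 121, 17.7, 41.3 and 31.5 TPM and mock 2 the highest. Dclk1, a doublecortin-like kinase, changed by -2.68 (SE 0.66, limma adjusted p = 0.0450). The calls of C1qtnf3 and Dclk1 were each lost in 9 of the 12 fits without a library.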
